A study of Homo sapiens with 12 samples.

Results

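The endoplasmic reticulum (ER) chaperones and folding enzymes described here are 10 genes: HSPA5, HSP90B1, HSPA13, HYOU1, PDIA3, PDIA4, PDIA6, CALR, CANX and H6PD. Members were selected on their listing, by gene name, in the authors' table of differential m6A peaks (m6A log2 difference and p-value between the conditions) and in both of the authors' peak lists, with every peak, every differential peak and the FPKM of the input libraries where listed. Of the 10 genes, 7 had FPKM among 6396 genes in all, and 9 had peaks in both lists. The members carried 22 of 28888 peaks after FTO knockdown and 27 of 39492 peaks in control cells. The genes were chosen with earlier results of these same samples known, and 7 of the 10 are listed in the table of differential peaks. Their knockdown and control values are therefore given as a description, with no test.

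FTO demethylates N6-methyladenosine (m6A), a common internal modification of messenger RNA. All libraries came from HGC27, a human cell line established from a gastric carcinoma. FTO was knocked down in the treated condition: the protocol speaks of a knockdown, the genotype label of FTO-KO and the titles of sh, and no hairpin sequence or clone is given. The comparison condition was wild type HGC27, labelled WT and Con in the titles and negative control in the protocol, with no control hairpin named. Poly(A) RNA was cut into fragments and sequenced before (input) and after (IP) enrichment with an m6A antibody, with 3 input and 3 IP libraries per condition, 12 in all. The labels do not say whether the 3 libraries of a condition came from separate cultures. Spreads and p-values of RNA levels therefore cover only the variation between these libraries, which may be technical. How the authors' p-values for m6A and for peaks treat variation between libraries is not given in the sources used here, so they are not read as a measure of it.

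Proteins that enter the secretory pathway fold in the ER lumen, a compartment rich in calcium and more oxidizing than the cytosol. Chaperones of the HSP70 and HSP90 families hold unfolded chains, the lectin chaperones calnexin and calreticulin bind chains that carry trimmed sugars, and protein disulfide isomerases make, break and rearrange disulfide bonds. When unfolded chains build up, the unfolded protein response (UPR) raises transcription of many of these genes through ATF6 and XBP1. Secretory and tumour cells are known for a high demand on this machinery.

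FTO itself checked the labels. Its RNA stood at 0.786, 0.830 and 0.765 FPKM in the 3 knockdown input libraries, against 5.48, 5.68 and 5.52 FPKM in the 3 control input libraries, which is 7.00-fold lower. FPKM summed over the listed genes to between 83712 and 86902 in knockdown libraries and to between 74289 and 78461 in control libraries, and sequencing depth was unknown. FPKM were listed only for genes with a differential peak, so 1 of 6 epithelial markers (MUC1, 1.43 ± 0.219 in knockdown and 1.24 ± 0.0415 FPKM in control libraries, SD, n = 3 each), 2 of 4 fibroblast markers (COL1A1 and THY1) and none of 4 mesenchymal or 4 immune markers had a value. COL1A1, a fibrillar collagen chain, averaged 147 ± 8.10 FPKM in knockdown and 169 ± 5.72 FPKM in control libraries, and THY1 averaged 15.0 ± 0.515 and 12.5 ± 0.606 FPKM in knockdown and control libraries (SD, n = 3 each). The labelled cell type could therefore not be checked against its markers here.

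The promoters of several members carry a sequence through which the UPR is known to act, the ER stress response element, and these stretches are shown as a description. The UPR is known to raise many of these genes, so the matches are no independent support for anything. The element was searched as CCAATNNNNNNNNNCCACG on both strands of promoter windows that reach from 250 bases before to 50 bases after each start site that the promoter table lists (RefSeq, GRCh38.p14). The listed starts of H6PD, CANX and PDIA6 lie inside the annotated gene spans, so the outermost 5′ ends of these genes were not searched. It was present in the windows of 5 of the 9 member genes matched in that table by symbol. Across the table it was present in 27 of 35116 windows (0.0769%) and 25 of 27305 genes (0.0916%), the members included. Of 36 other ER folding genes, 2 had it (CRELD2 and ERO1B). Each stretch is read along the gene, with the element in capitals, so an element on the other strand reads CGTGG first.
HSPA5, chr9:125241379-125241421, minus strand: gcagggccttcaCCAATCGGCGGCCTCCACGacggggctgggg
HSP90B1, chr12:103930204-103930246, plus strand: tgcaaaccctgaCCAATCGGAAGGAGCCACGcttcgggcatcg
HSP90B1, chr12:103930309-103930351, plus strand: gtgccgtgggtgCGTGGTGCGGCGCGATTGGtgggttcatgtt
PDIA6, chr2:10812841-10812883, minus strand: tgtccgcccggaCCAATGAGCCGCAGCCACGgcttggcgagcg
CANX, chr5:179698766-179698808, plus strand: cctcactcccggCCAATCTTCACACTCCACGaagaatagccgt
CALR, chr19:12938372-12938414, plus strand: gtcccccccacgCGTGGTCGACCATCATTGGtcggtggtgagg

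The first base of the element lay 66 bases before the annotated start of HSPA5, 194 and 89 bases before that of HSP90B1, 86 bases before that of PDIA6 and 225 bases before that of CALR. In CANX the distance was 9, 151 or 189 bases, depending on which of its annotated starts was used. HYOU1 carried a related element, ERSE-II, searched as ATTGGNCCACG on both strands, in 2 places that lay 185 and 79 bases before its start.
HYOU1, chr11:119057368-119057402, minus strand: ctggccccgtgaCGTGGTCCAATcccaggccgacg
HYOU1, chr11:119057262-119057296, minus strand: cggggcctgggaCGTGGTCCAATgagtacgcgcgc
ERSE-II was present in 19 of 35116 windows (0.0541%). The unfolded protein response element, searched as TGACGTGG on both strands, overlapped the first of these HYOU1 sites and was present in 256 windows (0.729%). None of the 3 searched elements was present in the windows of HSPA13 and PDIA4, which says only that these letters are not in these windows. The only H6PD window, chr1:9239597-9239896, held none either, but it lies downstream of the annotated 5′ end of the gene at position 9234774 and does not cover the promoter there.

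RNA of 5 of the 7 measured members was lower in all 3 knockdown libraries than in all 3 control libraries, by between 1.39-fold for CANX and 2.96-fold for H6PD. HYOU1 and CALR had overlapping groups. The rule used across the whole table was limma on log2(FPKM + 1) with a Benjamini-Hochberg adjusted p under 0.05. Of the 4515 genes tested, it called 62.4% in either direction, 37.9% lower and 24.5% higher. No such call is given for the members. Across the same 4515 genes, 40.5% had all 3 knockdown libraries below all 3 control libraries. The member count of 5 of 7 stands beside this last share as a description, and nothing is read from it. The median log2 difference, knockdown minus control, was -0.55 over the 7 members, which is the value of HSP90B1, and -0.07 over all genes tested. In bulk libraries, fewer cells with a transcript and less of it per cell cannot be told apart.

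Among the chaperones of the HSP70 and HSP90 families, HSPA13 and HSP90B1 were lower after knockdown without overlap, and HYOU1 was not separated. HSPA13 encodes an HSP70-like protein of the microsomal fraction that lacks the peptide-binding domain of its relatives. Its RNA was at 4.74, 5.01 and 4.18 FPKM in knockdown libraries, against 14.1, 13.8 and 11.1 FPKM in control libraries. Every knockdown library was below every control library, and the third control library was the lowest of its group. HSPA13 averaged 4.64 ± 0.421 FPKM in knockdown and 13.0 ± 1.61 FPKM in control libraries (SD, n = 3 each), 2.79-fold lower, with a log2 difference of -1.30 (SE 0.0915). It ranked 12 of 4515 by size of decrease.

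HSP90B1 encodes the HSP90 of the ER, which folds Toll-like receptors, integrins and other clients. Its RNA was at 30.1, 34.1 and 29.3 FPKM in knockdown libraries, against 51.2, 50.7 and 37.8 FPKM in control libraries. The groups did not overlap, but the third control library lay closer to the knockdown libraries than to the other controls. HSP90B1 averaged 31.2 ± 2.58 FPKM in knockdown and 46.6 ± 7.61 FPKM in control libraries (SD, n = 3 each), a log2 difference of -0.55 (SE 0.116). It had the largest standard error of the 7 members, and its difference ranged between -0.69 and -0.48 when a library was left out. HSP90B1 has near-identical pseudogene copies, and how the authors counted reads that match several places is not given in the sources used here, so its level is uncertain to that extent.

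HYOU1 encodes a large HSP70 relative that exchanges the nucleotide of BiP. Its RNA was at 59.1, 60.5 and 62.3 FPKM in knockdown libraries, against 61.6, 62.2 and 63.6 FPKM in control libraries. The groups overlapped. HYOU1 averaged 60.7 ± 1.63 FPKM in knockdown and 62.5 ± 1.02 FPKM in control libraries (SD, n = 3 each), a log2 difference of -0.04 (SE 0.0381) that turned to 0.05 when each library was centred on its median. HSPA5 encodes BiP, the main HSP70 chaperone of the lumen and a regulator of the UPR sensors. It was not listed in the differential peak table and has no FPKM here.

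Of the protein disulfide isomerases, only PDIA4 had FPKM, since PDIA3 and PDIA6 were not listed in that table. PDIA4 is a large isomerase of the lumen that works with BiP. Its RNA was at 79.3, 83.4 and 81.4 FPKM in knockdown libraries, against 156, 151 and 141 FPKM in control libraries, and the groups lay far apart. PDIA4 averaged 81.4 ± 2.09 FPKM in knockdown and 149 ± 7.75 FPKM in control libraries (SD, n = 3 each), 1.83-fold lower, with a log2 difference of -0.87 (SE 0.0486) and a rank of 64 of 4515.

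Of the lectin chaperones, CANX was lower after knockdown without overlap and CALR had overlapping groups. CANX encodes calnexin, the membrane-bound lectin, and its RNA was at 135, 147 and 144 FPKM in knockdown libraries, against 202, 204 and 184 FPKM in control libraries. The groups did not overlap, and CANX averaged 142 ± 6.31 FPKM in knockdown and 197 ± 10.8 FPKM in control libraries (SD, n = 3 each), a log2 difference of -0.47 (SE 0.0553). CALR encodes calreticulin, its soluble relative and a calcium store of the lumen. CALR RNA was at 239, 250 and 263 FPKM in knockdown libraries, against 239, 240 and 237 FPKM in control libraries. The groups overlapped, and the log2 difference of 0.07 (SE 0.0471) turned to -0.03 under quantile normalization.

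H6PD encodes hexose-6-phosphate dehydrogenase, which makes NADPH inside the ER lumen and there feeds the cortisol-forming enzyme HSD11B1. Its RNA was at 4.65, 4.43 and 5.30 FPKM in knockdown libraries, against 13.9, 14.0 and 14.7 FPKM in control libraries. The groups lay far apart and each was tight. H6PD averaged 4.79 ± 0.451 FPKM in knockdown and 14.2 ± 0.409 FPKM in control libraries (SD, n = 3 each), 2.96-fold lower, with a log2 difference of -1.40 (SE 0.0604). It ranked 8 of 4515 by size of decrease, a ranking in which FTO was at 3. FPKM are per length, so levels can be set side by side between genes: in control libraries CALR, CANX and PDIA4 ranked 18, 24 and 35 of the tested genes, while H6PD and HSPA13 ranked 901 and 1000.

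**Figure D1:**
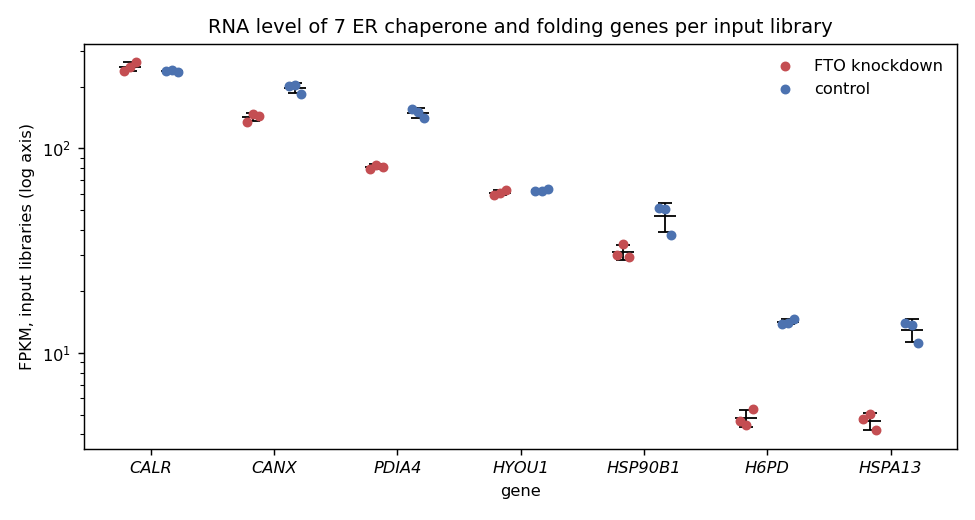
FPKM (log axis) of the 7 measured members in each input library, FTO knockdown left of control for each gene, with points for libraries and bars for mean and SD (n = 3 each). H6PD, HSPA13 and PDIA4 show wide gaps between the groups, while the groups of CALR and HYOU1 overlap and the third control library of HSP90B1, at 37.8 FPKM, lies near the knockdown libraries.

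Set beside the promoter stretches above, HSPA13 and PDIA4 had large differences and no match in their windows, and the promoter at the 5′ end of H6PD was not searched. Of the 4 measured members with a match, HSP90B1 and CANX were lower in knockdown libraries without overlap, and HYOU1 and CALR had overlapping groups.

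Each condition had a single deposited peak list, so peaks have no replicate values and fold enrichment of IP over input is the authors' own value for each peak. HSPA5, PDIA3, HSPA13 and HYOU1 had 1 peak per condition, and CALR had 2. CANX had 2 peaks after knockdown and 1 in control cells, PDIA4 had 4 and 3, HSP90B1 had 5 and 8, and H6PD had 5 and 9. Of the knockdown peaks, 21 of 22 (95.5%, exact 95% interval for counting error only 77.2 to 99.9) overlapped a control peak by at least 1 exonic base, against 88.8% of the whole knockdown list. Of the control peaks, 20 of 27 (74.1%, 53.7 to 88.9) overlapped a knockdown peak, against 57.9% of the whole control list. The 7 control peaks without a counterpart were 4 of H6PD and 3 of HSP90B1, with enrichments between 1.44 and 2.72. At an enrichment of at least 4-fold the count turned round, to 13 member peaks after knockdown and 11 in control cells.

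Median enrichment was 7.03 over the member peaks after knockdown and 2.72 in control cells, beside 7.05 and 6.11 over all peaks of the knockdown and control lists. The member sets differ, since the control set also holds the weak H6PD and HSP90B1 peaks without a counterpart. The value of 2.72 is itself that of such an H6PD peak, so these medians do not compare the same peaks. In the authors' annotation 12 of 22 member peaks after knockdown (54.5%) and 17 of 27 in control cells (63.0%) lay in a 3' UTR, against 46.5% and 47.6% of all knockdown and control peaks. That annotation depends on the transcript chosen for a peak, and many member peaks were assigned to retained-intron or processed transcripts. When each knockdown peak was set against the control peak it overlapped best, enrichment was higher after knockdown at 18 of 21 member peaks, with a median ratio of 1.39 and a range of 0.851 to 2.62. Over all 25665 such pairs, 52.3% were higher after knockdown and the median ratio was 1.03. The members were chosen with results of this contrast known, peaks of a gene share its transcript, and nothing is read from the count.

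**Figure D2:**
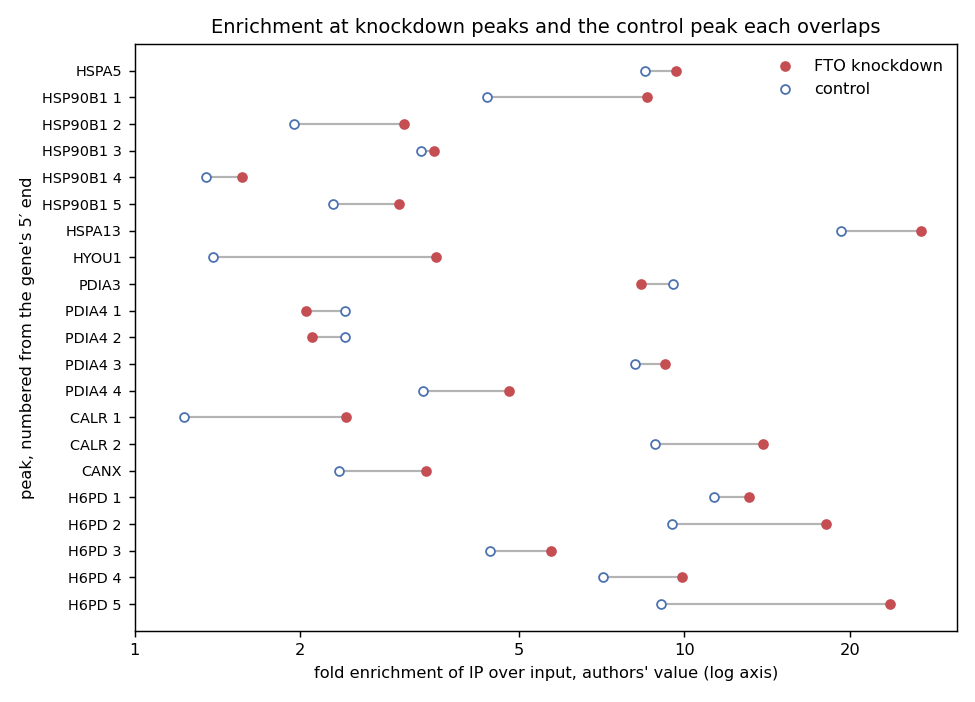
Authors' fold enrichment (log axis) at each of the 21 knockdown peaks of the members that overlap a control peak, with filled points for FTO knockdown and open points for the control peak. Filled points lie to the right at 18 of 21 pairs, the exceptions being the PDIA3 peak and the PDIA4 peaks numbered 1 and 2, which share a control peak.

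At the HSP70 and HSP90 members, enrichment was higher after knockdown in each overlapping pair. HSPA5 had a single peak at the end of the gene, annotated to its 3' UTR, at chr9:125236229-125236918 with 9.64-fold enrichment after knockdown and at chr9:125236080-125236918 with 8.48-fold enrichment in control cells. HSPA13 had the highest enrichment of any member, in exon 4 of 5, with 26.9-fold after knockdown (chr21:14373744-14375678) and 19.3-fold in control cells (chr21:14373714-14375798). In the authors' deposited table its differential peak was 0.46 higher on the log2 scale after knockdown, with a log10 adjusted p of -8.85.

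HYOU1 had the largest log2 difference of m6A among the members, at chr11:119048799-119049259, annotated to a 3' UTR of a retained-intron transcript. The authors' deposited table gave 1.11 higher after knockdown, a 2.16-fold difference with a log10 adjusted p of -169. Enrichment of the peak was 3.53-fold after knockdown and 1.39-fold in control cells. That control peak was among the weakest, with 98.7% of the control list higher. HYOU1 was also a gene whose RNA groups overlapped.

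HSP90B1 had peaks along its whole length, with enrichments of 8.54, 3.09, 3.51, 1.57 and 3.03 after knockdown. In control cells they were 4.38, 1.95, 2.68, 3.32, 1.63, 1.44, 1.35 and 2.29, so the highest value in each condition was at the 5′ end of the gene. The annotation of that first peak was a 5' UTR in the knockdown list and a 3' UTR of a retained-intron transcript in the control list. The authors' deposited table held 2 differential peaks with opposite signs in this gene: chr12:103930425-103930555 was 0.71 higher after knockdown (log10 adjusted p -4.35), and chr12:103932169-103934018 fell by 0.61 (log10 adjusted p -52.1). The second had a control peak of 2.68-fold and no peak after knockdown. Some peaks listed under HSP90B1 carry the identifier of another gene and are in the counts above. The 3.09-fold knockdown peak and the 1.95-fold control peak carry that of the microRNA gene MIR3652 and lie within the span of the peak at the 5′ end. The 1.63-fold control peak carries that of UQCC6 and overlaps the span of the 1.44-fold peak.

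The first differential peak of HSP90B1 has the same coordinates as the annotated hairpin of MIR3652, which overlaps the start of the gene, so its sequence could be read from the RefSeq miRNA records. The stretch around its only GGACU, a common sequence context of m6A, is shown because it is the one differential peak of a member whose letters were at hand, with GGACU in capitals.
HSP90B1, chr12:103930477-103930505, plus strand: ugcgaucgaaggGGACUugagacucaccg
GGACU was present in 138 of 1562 hairpins (8.83%), whose lengths differ. The match is a description and no called site. The libraries were made from fragments of poly(A) RNA, so reads there cannot be told apart between HSP90B1 and the hairpin.

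Among the isomerases, differences were mixed in sign. PDIA3, which binds calnexin and calreticulin and acts on glycoproteins, had 1 peak at its 3′ end, with 8.34-fold enrichment after knockdown (chr15:43770539-43771512) and 9.52-fold in control cells (chr15:43770539-43771572). PDIA4 had its highest enrichment near its 3′ end, at 9.21-fold after knockdown (chr7:149003542-149005372) and 8.13-fold in control cells (chr7:149003422-149005924). The authors' deposited table gave that PDIA4 region as 0.33 higher after knockdown, with a log10 adjusted p of -85.5. A second 3' UTR peak of PDIA4 had 4.80-fold enrichment after knockdown and 3.35-fold in control cells. Further upstream, PDIA4 had peaks of 2.10-fold and 2.05-fold after knockdown where control cells had a single longer peak of 2.41-fold.

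PDIA6 had no peak under its own gene name in either list. Peaks that carry the PDIA6 gene identifier but the name of a long non-coding RNA, AC092687, lay at the 3′ end of PDIA6. They had 3.03-fold enrichment after knockdown (chr2:10783989-10784984), and 3.39-fold (chr2:10783899-10784954) and 2.65-fold (chr2:10783391-10783750) in control cells. They fall outside the choice by gene name and are in none of the counts above.

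Both lectin chaperones had higher enrichment after knockdown at the overlapping peaks under their own names. CALR had 13.9-fold after knockdown (chr19:12943512-12944191) and 8.85-fold in control cells (chr19:12943512-12944489) at its last exons. In exon 5 of 9 it had 2.42-fold after knockdown and 1.23-fold in control cells, a value that 99.7% of the control list exceeded. A further knockdown peak at the very end of CALR (chr19:12944429-12944489) carries its gene identifier but the name AC092069. It had 1.90-fold enrichment after knockdown and lies within the span of the 8.85-fold control peak. That control value is for the whole, longer peak, so no control value for this stretch alone was at hand. This knockdown peak is in none of the counts above. In the authors' deposited table the 2 differential peaks of CALR were 0.40 and 0.82 higher after knockdown, with log10 adjusted p of -249 and -434. CANX had 3.39-fold enrichment after knockdown (chr5:179723772-179728735) and 2.35-fold in control cells (chr5:179724679-179728855), and the authors' deposited table gave 0.25 higher after knockdown with a log10 adjusted p of -40.2. The only knockdown peak of a member without a control counterpart was listed under CANX at chr5:179678560-179678709, with 10.5-fold enrichment. It had a log10 adjusted p of -1.82, the weakest of the 22, and its identifier is that of the neighbouring gene CBY3.

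H6PD carried 5 differential peaks, more than any other member, and they did not share a sign. The authors' deposited table gave 3 as higher after knockdown: chr1:9234864-9247060 at the 5′ end by 0.36, chr1:9263515-9264474 by 0.50 and chr1:9269719-9271187 at the 3′ end by 1.05, with log10 adjusted p of -7.02, -10.9 and -43.9. Between the last of these regions, chr1:9266961-9267111 fell by 1.0 and chr1:9267591-9268010 fell by 0.50 in the same table, with log10 adjusted p of -2.13 and -4.47. Both lower regions had a control peak (2.53-fold and 1.72-fold) and no knockdown peak. Along the gene, enrichment after knockdown was 13.1, 18.1, 5.72, 9.91 and 23.7, against 11.3, 9.49, 4.42, 7.11 and 9.05 at the control peaks they overlapped. The control peaks without a counterpart had enrichments of 1.92, 2.53, 1.72 and 2.72. H6PD RNA was lower after knockdown, and its part in which weak peaks were found was not tested.

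**Figure D3:**
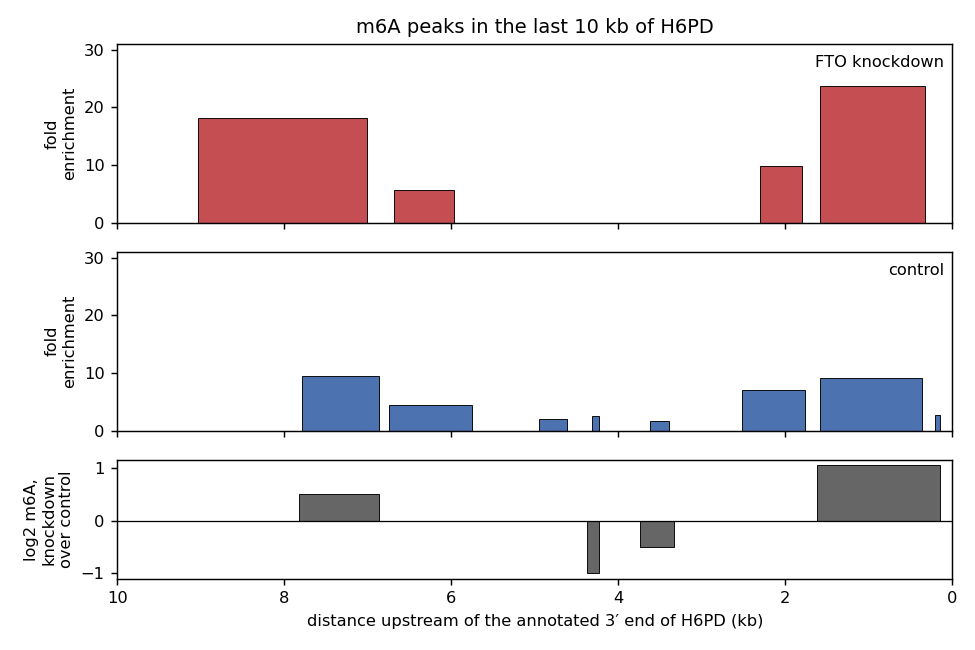
Peaks within the last 10 kb of H6PD, by distance in kb upstream of its annotated 3′ end, as fold enrichment after FTO knockdown (top) and in control cells (middle), and the authors' log2 m6A difference, knockdown over control, at differential peaks (bottom); a bar spans a peak, introns included. Enrichment reaches 23.7 after knockdown and 9.05 in control cells near the 3′ end, and the 2 regions below 0 hold weak control peaks and no knockdown peak.

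Over the 7 genes with a differential peak, 10 of 13 such peaks were higher and 3 lower after knockdown in the authors' deposited table. Of all 8687 differential peaks with a gene name, 55.4% were higher after knockdown. The 7 genes are counted because this table lists them, so the count is given without a reading. HYOU1 and CALR, with overlapping RNA groups, had log2 m6A differences of 1.11 for HYOU1 and 0.82 and 0.40 for CALR. H6PD and HSPA13, with the largest RNA differences, had between -1.0 and 1.05 for H6PD and 0.46 for HSPA13.

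Other genes of ER folding were set beside the members, from lists of which only the genes in the differential peak table have values. Of all 4515 genes tested, 62.4% were called, 37.9% lower and 24.5% higher. The counts of calls in this list and in each later list stand beside these shares, and nothing is read from them. Of 41 other ER folding genes (co-chaperones, isomerases, oxidases, prolyl isomerases and glucosidases), 16 were tested. By limma, 7 fell, 2 rose and 7 did not pass the test. Their median log2 difference was -0.08, beside -0.07 over all genes tested. FKBP9, a prolyl isomerase of the lumen, averaged 51.1 ± 1.86 FPKM in knockdown and 69.8 ± 1.34 FPKM in control libraries (SD, n = 3 each) and fell by 0.44 on the log2 scale (limma, Benjamini-Hochberg adjusted p = 7.5e-05). TXNDC5, an isomerase of the PDI family, averaged 66.3 ± 2.54 FPKM in knockdown and 82.9 ± 2.66 FPKM in control libraries (SD, n = 3 each) and fell by 0.32 (limma adjusted p = 0.000543). PRKCSH, the noncatalytic subunit of glucosidase II, which trims sugars for the calnexin cycle, rose by 0.33 (limma adjusted p = 0.00177), with 53.5 ± 3.03 FPKM in knockdown and 42.4 ± 2.50 FPKM in control libraries (SD, n = 3 each). FKBP2, another prolyl isomerase, rose by 0.58 (limma adjusted p = 0.0115) at low levels of 2.99 ± 0.763 FPKM in knockdown and 1.67 ± 0.428 FPKM in control libraries (SD, n = 3 each).

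The UPR signalling genes gave both directions. Of 23 listed, 9 were tested, 4 fell, 2 rose and 3 (EIF2S1, WFS1 and MAP3K5) did not pass the test, with a median of -0.09. ATF4, the transcription factor made when the kinase PERK is active, was at 116, 119 and 118 FPKM in knockdown libraries, against 148, 145 and 146 FPKM in control libraries, and fell by 0.31 (limma adjusted p = 0.000232). CHAC1, an ATF4 target that breaks down glutathione, was at 23.0, 21.2 and 21.8 FPKM in knockdown libraries, against 29.2, 31.2 and 32.6 FPKM in control libraries, and fell by 0.48 (limma adjusted p = 0.000166). Neither gene's groups overlapped. EIF2AK3, which encodes PERK, and MBTPS1, a protease that cleaves ATF6, were also called lower. The MBTPS1 call was lost under quantile normalization, under median-centring and without knockdown library 1 or 3, with adjusted p up to 0.227. PPP1R15A, which brings a phosphatase to the translation factor that PERK phosphorylates, rose by 0.30 (limma adjusted p = 0.000239), with 29.0 ± 0.452 FPKM in knockdown and 23.4 ± 0.384 FPKM in control libraries (SD, n = 3 each). TRAF2, an adaptor of the sensor IRE1, rose by 0.25 (limma adjusted p = 0.0135). ATF6, XBP1, ERN1 and DDIT3 had no FPKM in the table.

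Of 27 genes of ER-associated degradation (ERAD), which extracts misfolded proteins for the proteasome, 5 were tested, and 3 rose and 2 fell by limma, with a median of 0.21. VCP, the ATPase that pulls proteins out of the ER, was at 84.2, 87.2 and 90.9 FPKM in knockdown libraries, against 63.3, 59.6 and 61.4 FPKM in control libraries, and rose by 0.50 (limma adjusted p = 6.2e-05). The conjugating enzyme UBE2G2 rose by 0.28 (limma adjusted p = 0.000889), and UBE2J2 was also called higher. HERPUD2, a relative of the ERAD adaptor HERPUD1, was at 5.93, 6.51 and 5.80 FPKM in knockdown libraries, against 9.40, 10.3 and 9.37 FPKM in control libraries, and fell by 0.60 (limma adjusted p = 8.7e-05). OS9, a lectin that selects misfolded glycoproteins, fell by 0.19 (limma adjusted p = 0.00420), and that call was lost under median-centring (adjusted p = 0.0687).

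Chaperones outside the ER had a median of 0.15. Of 37 cytosolic and mitochondrial chaperone genes, 17 had FPKM and 14 were tested, and 6 rose, 2 fell and 6 did not pass the test by limma. HSPE1, the co-chaperonin of mitochondria, was at 16.9, 17.2 and 17.9 FPKM in knockdown libraries, against 11.3, 11.7 and 9.95 FPKM in control libraries, and rose by 0.61 (limma adjusted p = 1e-04). STIP1, which links HSP70 and HSP90 in the cytosol, rose by 0.24 (limma adjusted p = 0.00067), with 41.1 ± 0.668 FPKM in knockdown and 34.7 ± 0.291 FPKM in control libraries (SD, n = 3 each). DNAJB4, an HSP40 co-chaperone, fell by 0.45 (limma adjusted p = 0.00196). DNAJA2, another HSP40, fell by 0.13 (limma adjusted p = 0.0229), and its call was lost under median-centring and without any of 4 libraries in turn, with adjusted p up to 0.406.

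Genes that work beside H6PD were taken from a list of the pentose phosphate pathway and of glucose-6-phosphate and cortisol handling in the ER. SLC37A4, which carries glucose-6-phosphate into the ER, was at 8.90, 7.96 and 8.42 FPKM in knockdown libraries, against 10.5, 10.6 and 11.6 FPKM in control libraries, and fell by 0.34 (limma adjusted p = 0.00107). PGD, a dehydrogenase of the cytosolic pathway, did not pass the test. HSD11B1 had no FPKM.

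**Figure D4:**
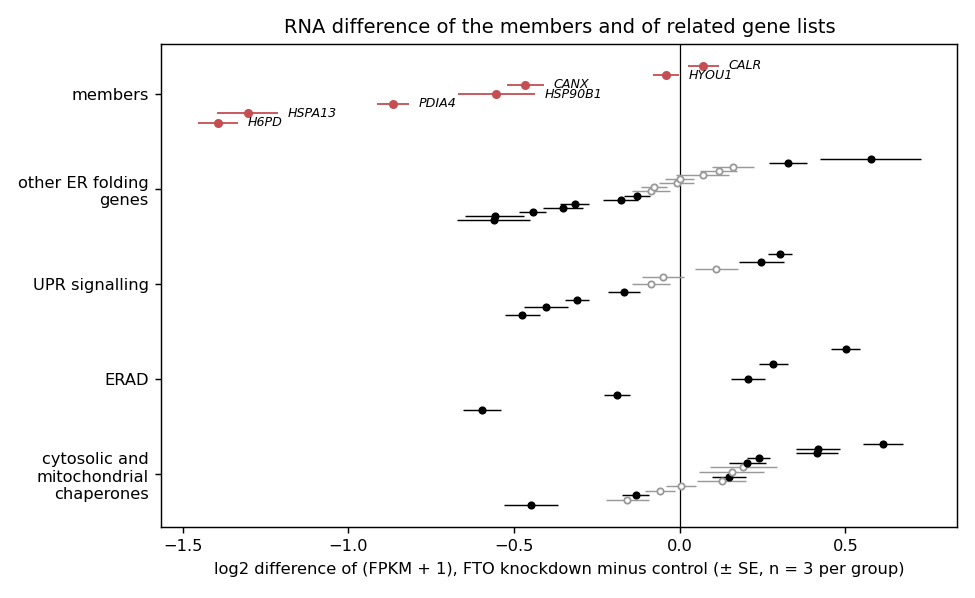
Log2 difference of (FPKM + 1), FTO knockdown minus control (± SE, n = 3 per group), of the 7 members (red, named) and of 4 related lists. In the related lists, filled black points passed the limma test and open grey points did not. All members are drawn filled, which marks no call. H6PD at -1.40, HSPA13 at -1.30 and PDIA4 at -0.87 lie further to the left than any gene of the other lists, whose values span -0.60 to 0.61.

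Peaks on these lists were set beside the member pairs, whether or not a listed gene had a differential peak. Among other ER folding genes, enrichment was higher after knockdown at 35 of 63 overlapping pairs, with a median ratio of 1.03. It was higher at 20 of 28 pairs of UPR signalling genes (median ratio 1.09), at 11 of 27 pairs of ERAD genes (0.93) and at 22 of 46 pairs of cytosolic and mitochondrial chaperones (0.989). The member median of 1.39 was above each of these. The members were chosen with results of this contrast known, and 7 of the 10 have a differential peak in it. Nothing is therefore read from that difference.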

How the data were processed

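The authors computed FPKM per input library, per the file headers, and gave them only where a gene had a differential peak. Per the file headers, the differential table deposited by the authors gave log2 fold changes of m6A and of expression, a p-value and a score (log10 adjusted p). Each peak list deposited by the authors gave a ratio (fold enrichment of IP over input) and scores on a log10 scale for raw and adjusted p-values. Replicates had been pooled or merged before that, and the peak caller is not given in the sources used here. Per the submitters' processing notes the tools included HISAT2 2.0, StringTie 1.3.0 and Bowtie 0.12.2, with no roles stated. Those notes name a mouse genome build, but positions and identifiers were human and all member peaks overlapped their genes in GRCh38, so positions were read as GRCh38 and counted from 1. Deposited log2 values were control over knockdown: expression was recomputed to within 1.46e-13 over 8436 entries, and the m6A value had a Spearman rho of -0.8603 with the knockdown over control enrichment ratio over 4094 peaks. They were turned to knockdown over control. Of the knockdown list, 3 repeated entries were left out, as were 283 of 8970 differential peaks without a gene name.

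A gene was tested if its FPKM averaged 1 or more across the 6 inputs. Tests were two-sided and ran on log2(FPKM + 1), a scale that understates the change of low genes, in limma 3.58.1 under R 4.3.3 (trended empirical Bayes, without a block). Adjustment was by Benjamini-Hochberg over 4515 genes. The members and lists were chosen with earlier results of these data known. Named from each list were the 2 genes with the smallest p in each direction and, by name, others of short lists; a result of the pentose phosphate list is not reported here. Alternatives were another pseudocount, other filters on low values, quantile normalization, median-centring, a replicate block, leaving out each library, stricter peak thresholds and a stricter overlap. Titles number the libraries of both conditions 1 to 3, but same-numbered libraries did not deviate together, so they were not treated as pairs.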

Additional observations from a re-analysis of the deposited data

How the results depend on the processing

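Of the 5 members with groups that did not overlap, none turned its direction under the 12 alternatives run for each. The members' median log2 difference, -0.55, was -0.46 under median-centring and between -0.69 and -0.48 when a library was left out, the lowest without the third control library and the highest without the first. In each of these settings the median was the value of HSP90B1, so it follows that 1 gene. H6PD and HSPA13 were at -1.55 and -1.46 with a pseudocount of 0.1 FPKM. Scaling moved the balance of all calls: 1107 genes were higher and 1712 lower as reported, 1425 and 1291 under quantile normalization, and 1507 and 1213 under median-centring. With a mean of at least 5 FPKM, 830 genes were higher and 773 lower, other ER folding genes had 1 higher and 4 lower, and cytosolic and mitochondrial chaperones had 1 lower, since fewer genes were tested. Other ER folding genes had 4 higher under quantile normalization and 4 higher under median-centring, where ERAD genes had 1 lower and cytosolic and mitochondrial chaperones 1 lower; the cause was not tested. Leaving out a library gave 942 to 1170 genes higher and 1462 to 1848 lower, and, of cytosolic and mitochondrial chaperones, 5 to 8 higher and 1 to 3 lower (1 without knockdown library 1, knockdown library 3 or control library 1). With an enrichment of at least 4-fold, 13 knockdown and 11 control member peaks remained. With an adjusted p of at most 1e-05 in both lists, 100% of 21 knockdown member peaks overlapped a control peak. Under that threshold 74.1% of 27 control member peaks overlapped a knockdown peak. With a reciprocal overlap of at least 50%, the shares were 18 of 22 knockdown member peaks (81.8%) and 18 of 27 control member peaks (66.7%).

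With the replicate block, 1074 genes were called higher and 1673 lower. Deviations of same-numbered libraries had correlations of -0.0769, 0.0278 and 0.0247, and no library correlated best with its own number, so the numbers give no pairing. Depth was unknown, and peaks have no replicate values.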

Other observations

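Lists chosen after the data were seen add other parts of the ER. Of 40 genes of the translocon, signal peptidase and N-glycosylation, 8 were tested by limma, of which 2 rose and 3 fell, with a median log2 difference of -0.07. ALG1, a mannosyltransferase that builds the sugar precursor, was at 8.53 ± 0.253 FPKM in knockdown and 4.82 ± 0.207 FPKM in control libraries (SD, n = 3 each) and rose by 0.71 (limma, Benjamini-Hochberg adjusted p = 2.2e-05). DPAGT1, the enzyme that starts the same precursor, was at 15.4 ± 0.326 FPKM in knockdown and 19.2 ± 0.861 FPKM in control libraries (SD, n = 3 each) and fell by 0.31 (limma adjusted p = 0.00061). STT3B, a catalytic subunit of the oligosaccharyltransferase, fell by 0.28 (limma adjusted p = 0.00199). Enrichment was higher after knockdown at 14 of 23 overlapping peak pairs of this list, with a median ratio of 1.02.

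Of 19 genes of ER calcium handling, 5 were tested, of which 2 rose and 1 fell, with a median of 0.06. STIM1, the calcium sensor of the ER membrane, was at 8.87 ± 0.276 FPKM in knockdown and 12.6 ± 0.628 FPKM in control libraries (SD, n = 3 each) and fell by 0.46 (limma adjusted p = 0.000131). ORAI1, the plasma membrane channel that STIM1 opens, was at 14.3 ± 0.975 FPKM in knockdown and 10.5 ± 0.989 FPKM in control libraries (SD, n = 3 each) and rose by 0.42 (limma adjusted p = 0.00158). Enrichment was higher after knockdown at 16 of 28 overlapping peak pairs of this list, with a median ratio of 1.08.

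Pseudogene copies of members also carried peaks. HSP90B2P had no peak after knockdown and 6 in control cells, with enrichments between 2.04 and 32.8. PDIA3P1 had 2 peaks after knockdown, of 2.24 and 2.48, and 3 in control cells, between 2.93 and 4.33. HSPA5P1 had no peak after knockdown and 1 in control cells, of 4.20. How reads shared by a copy and its parent were assigned is not given in the sources used here, so peaks of HSP90B1, PDIA3 and HSPA5 carry that uncertainty.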
